A study of Mus musculus with 2 samples.

Results

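Histone acetylation is written, erased and read by families of nuclear proteins, and 41 genes of these families were compared between cultured dentate gyrus (DG) astrocytes of wild type (WT) and β-arrestin 1 knockout (β-arr1 KO) mice. The genes were taken by symbol: the zinc-dependent deacetylases (Hdac1 to Hdac11), the sirtuins (Sirt1, Sirt2, Sirt4, Sirt5, Sirt6, Sirt7), the acetyltransferases (Ep300, Crebbp, Kat2a, Kat2b, Kat5, Kat8), the corepressor scaffolds (such as Ncor1, Sin3a and Sin3b), the nuclear receptor coactivators (Ncoa1 to Ncoa7) and the numbered bromodomain genes (such as Brd2 and Brd8). They are 41 of the 16302 symbols listed in the tables of the series, and all 41 were listed in both tables. Sirt3 was not among the symbols listed and so was not analysed here. The MYST acetyltransferase genes Kat6a, Kat6b and Kat7 stood in the tables under the older symbols Myst3, Myst4 and Myst2, so that the symbol rule did not take them, and they are described with the partner genes.

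The series holds 1 RNA sequencing library of WT astrocytes and 1 of β-arr1-/- astrocytes. Several mice per group were sampled per the study's legend, and whether a library pooled their RNA is not given in the sources used here. The strain label of both genotypes was C57BL/6 (the knockout line had been backcrossed onto C57BL/6J), and in the β-arr1-/- mice the gene was deleted in the whole animal, not in astrocytes alone. Cells were dissociated from adult DG, grown in medium with serum for 6 days and shaken to take off loosely attached cells, and the exact age of the donor mice is not given in the sources used here. Expression was deposited as FPKM (fragments per kilobase of transcript, scaled by all mapped fragments), so that values allow for transcript length and library size. With 1 library per genotype there is no spread between replicates, so the genotypes could not be tested and no p-value is given, and genotype cannot be told apart from any other difference between the pair of cultures.

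Acetyl groups on histone tails loosen chromatin and form docking sites for bromodomains. The acetyltransferases p300, CBP, GCN5 and PCAF (Ep300, Crebbp, Kat2a, Kat2b) and the MYST enzymes (such as Tip60, Kat5) add them. Zinc-dependent deacetylases and the NAD-dependent sirtuins take them off, and deacetylases act largely in complexes: HDAC1 and HDAC2 sit on Sin3, NuRD and CoREST scaffolds, and HDAC3 sits on nuclear receptor corepressors such as NCoR (Ncor1). β-arrestin 1, a regulator of G-protein coupled receptors, can enter the nucleus, and earlier work on other cells described it together with p300 at the promoters of Cdkn1b (the cell cycle inhibitor p27) and Fos. In astrocytes these enzymes are best known for roles in glial fate, inflammation and the response to nuclear receptors.

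The knocked-out gene itself, Arrb1, was listed at 7.62 FPKM in WT against 2.72 FPKM in β-arr1 KO (ratio 0.358). About 9.54 M and 9.82 M mapped fragments stood behind the WT and the KO table, as estimated from the smallest FPKM steps. All 9 astrocyte markers examined were at 1 FPKM or more in both libraries, with a summed level of 313 FPKM in the WT and 358 FPKM in the KO library. Most of that sum was Gfap, at 189 and 192 FPKM. Larger differences stood behind it, with Aqp4 at 7.05 and 13.5 FPKM, S100b at 29.3 and 51.7 FPKM and Aldoc at 13.5 and 21.6 FPKM. Gja1 alone of these markers was lower in KO, at 34.0 and 29.4 FPKM. The cultures held transcripts of other cells too. The 6 microglial markers summed to 237 and 216 FPKM, and those of fibroblast or mural cells to 2998 and 2741 FPKM, most of it Acta2 at 2478 and 2469 FPKM, with Pdgfrb not listed. The other fibroblast markers were lower in KO, Col1a1 at 420 and 237 FPKM, Col1a2 at 92.3 and 34.3 FPKM and Dcn at 6.11 and 0.831 FPKM, with Lum listed in WT only. Neuronal markers summed to 45.1 and 60.4 FPKM, nearly all of it Tubb3, while Map2 was not listed. The 5 endothelial markers summed to 40.8 and 28.6 FPKM and the 6 oligodendrocyte markers to 28.8 and 35.9 FPKM. The 5 markers of cycling cells were close, at 130 and 132 FPKM. Among the 41 genes, Hdac6 and Hdac8 are X-linked. Rows for 4 Y-linked genes (Ddx3y, Eif2s3y, Kdm5d and Uty, with a sum of 8.44 FPKM) were present in the KO table only. RNA of male cells was thus seen in the KO library only, and donor sex cannot be told apart from genotype. The part of these differences in the values below was not tested, and in such bulk RNA fewer cells of a type and less RNA per cell cannot be told apart.

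All 41 genes were listed at 1 FPKM or more in both libraries, and most of them lay above the median gene. Their levels ran from 2.9997 to 95.3 FPKM in WT, with a median of 11.7, and from 3.07 to 107 FPKM in KO, with a median of 10.8. The median of all listed genes was 7.04 FPKM in the WT and 7.16 FPKM in the KO library, and 32 and 31 of the 41 genes lay above it. The order of levels was much the same, since 7 of the 8 highest genes were shared and no gene moved by more than 8 places. Sin3b, a scaffold of HDAC1 and HDAC2 complexes, was the highest in both libraries, followed by Sirt2, a deacetylase that acts largely on tubulin in the cytoplasm, and by the bromodomain protein gene Brd2. Hdac9 was the lowest in WT and Sirt1 the lowest in KO.

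**Figure D1:**
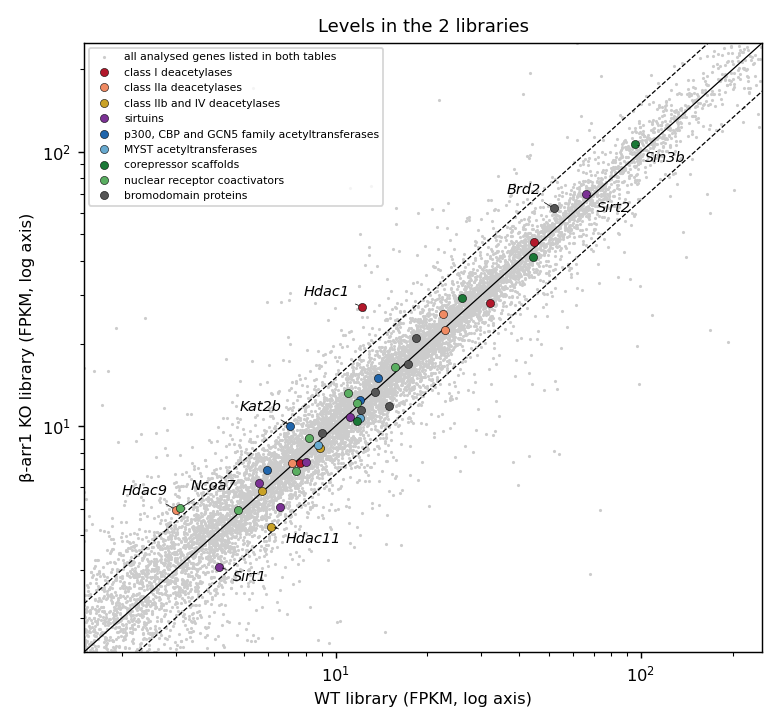
Level of each gene in the WT library (x axis) and the β-arr1 KO library (y axis), in FPKM on log axes. Coloured points are the 41 genes by role, grey points are the other analysed genes listed in both tables within the plotted range, the solid line marks equal levels and the dashed lines mark ratios of 3/2 and 2/3. Hdac1, Hdac9 and Ncoa7 lie above the upper dashed line and none of the 41 lies below the lower one.

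A ratio of β-arr1 KO vs. WT above 3/2 or below 2/3, the limits used in the study, was reached by 3 of the 41 genes (7.32%). All 3 were higher in KO, namely Hdac1, Hdac9 and Ncoa7, and none was below 2/3. Over all 12646 genes with at least 1 FPKM in a library, 17.8% passed these limits, 9.56% above and 8.28% below. This share counts genes listed in 1 table only as past the limits. The study reported a lower share, over a gene set of its own. For genes listed in both tables the share was 14.6%, and for those of them whose mean level lay in the range of the 41 genes it was 9.7%. The typical ratio was close to 1, as it was over all analysed genes. Of the 41 genes, 22 differed by less than 10% and 32 by less than 20%, and no such count was made over all genes. The median log2 ratio was 0.04, beside 0.02 for all analysed genes. The median size of the log2 ratio, without its sign, was 0.12, beside 0.16 for the genes in the same range of levels.

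For each ratio a 95% interval was computed from the estimated fragments, which covers counting error only and says nothing of the spread between cultures. This interval left out 1 for 16 of the 41 genes (39.0%), with 11 higher and 5 lower in KO. The share over all genes listed in both tables was 40.9%, with 22.4% higher and 18.5% lower, and 40.3% within the same range of levels, so that the 41 genes stood near the background. For the other 25 genes the ratio was not distinguishable from 1 at this depth.

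**Figure D2:**
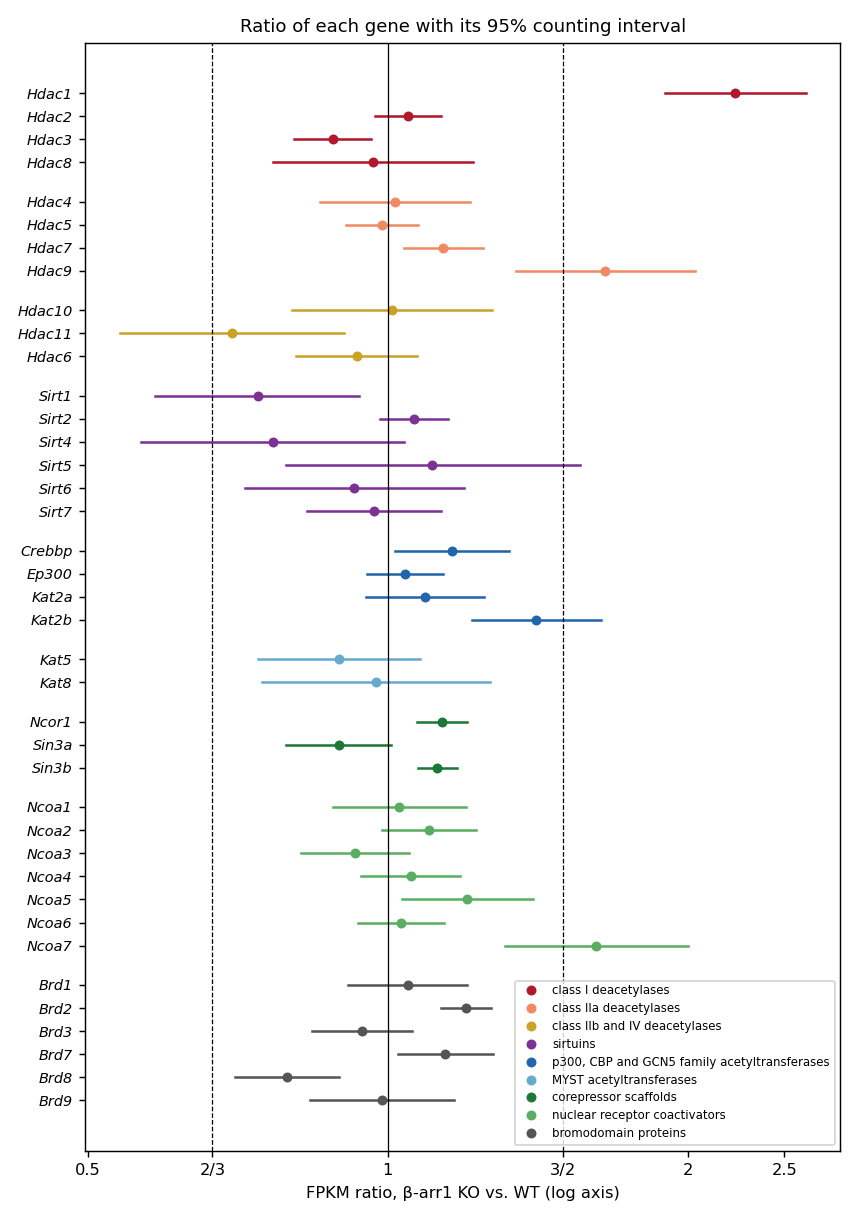
FPKM ratio of β-arr1 KO vs. WT for 39 of the 41 genes, on a log axis, grouped and coloured by role. Points are the ratios, bars are the 95% counting intervals, the solid line marks 1 and the dashed lines mark 2/3 and 3/2. The interval of Hdac1 (1.899 to 2.63) lies wholly beyond 3/2, while those of Hdac9 and Ncoa7 cross 3/2.

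The class I deacetylases are the nuclear enzymes of the corepressor complexes, and Hdac1 showed the largest difference of all 41 genes. Hdac1 was at 12.2 FPKM in the WT and 27.2 FPKM in the KO library. The KO level was 2.23 times the WT level, with an interval of 1.899 to 2.63 based on about 217 and 499 fragments. Hdac2, the close paralog that shares its complexes, was at 44.8 and 46.9 FPKM, or a KO/WT ratio of 1.05 (0.972 to 1.13). Hdac2 was thus the more abundant of the pair in both libraries, but the share of Hdac1 in their sum was 21.4% in WT and 36.7% in KO, and the sum was 57.0 and 74.2 FPKM. Hdac3, the enzyme of NCoR complexes, was at 32.0 FPKM in the WT and 28.2 FPKM in the KO library, or a KO/WT ratio of 0.880 (0.805 to 0.962), on the other side of 1 from Hdac1. Hdac8, which acts outside these complexes and on cohesin, was the lowest of the class at 7.62 and 7.37 FPKM.

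The transcript of Hdac1 has near-identical copies elsewhere in the genome, which bears on how its reads could be placed. Hdac1 lies at chr4:129193348-129219890 on the minus strand (NCBIM37, the assembly also called mm9) and the longest annotated transcript has 2038 bases in 14 exons. A retrocopy without introns, annotated as Hdac1-ps, lies at chr17:78890879-78892881 on the plus strand and matches it at 98.8% over 2004 aligned bases, with 12 mismatches and 3 gaps. Of all stretches of 100 bases in the Hdac1 transcript, the length of 1 read, 54.2% occur without a difference in this copy. Neither table listed a gene there. In the coding part of Hdac1, 9 bases differ from Hdac1-ps, and 6 of them fall in exon 5. That exon and the matching piece of the copy are given below, since it is the part of the coding sequence where a read tells the gene from the copy most readily; the capitals mark the bases that differ. Exon 5 spans chr4:129200207-129200345 (minus strand) and its counterpart chr17:78891277-78891415 (plus strand), both read 5′ to 3′ along the transcript from NCBIM37.
Hdac1 exon 5: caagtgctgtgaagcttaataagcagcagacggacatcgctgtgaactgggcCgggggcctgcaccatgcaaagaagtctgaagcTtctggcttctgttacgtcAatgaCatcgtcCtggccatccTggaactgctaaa
Hdac1-ps: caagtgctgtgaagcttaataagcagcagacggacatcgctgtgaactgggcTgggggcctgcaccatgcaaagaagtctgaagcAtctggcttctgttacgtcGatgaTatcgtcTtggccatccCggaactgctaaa
The tables give 1 FPKM value per gene and library and no count per exon, so the level of Hdac1 could not be recomputed from these bases alone. How reads that fit both places were shared out is not given in the sources used here, and the part of the copies in the Hdac1 values was not tested. The bounds of the Hdac1 locus were the same in both tables. The gene next to it, Marcksl1, was at 67.5 FPKM in the WT and 58.3 FPKM in the KO library, lower in KO where Hdac1 was higher.

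**Figure D3:**
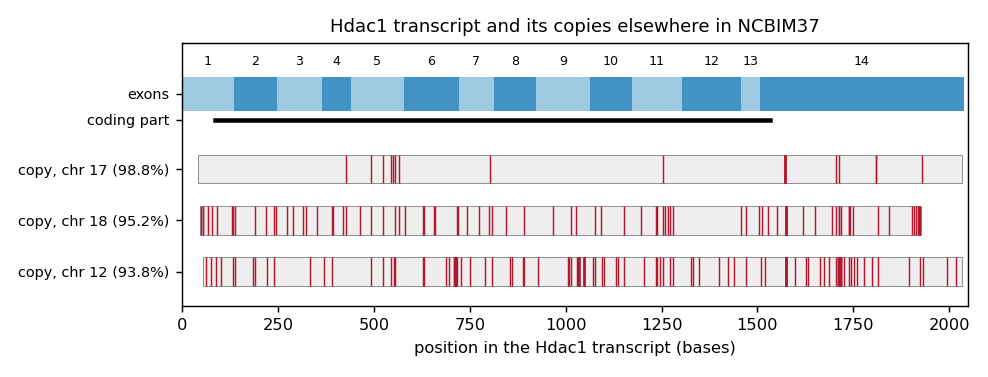
Map of the Hdac1 transcript, with position in bases on the x axis. The top bar shows the 14 exons in alternating shades, the black line the coding part, and each grey bar the aligned extent of a copy on another chromosome with its identity, with red ticks at the positions that differ from Hdac1. The copy on chromosome 17 has long stretches without a tick, the longest of 450 bases.

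Further copies of Hdac1 match at 95.2% on chromosome 18 and at 93.8% on chromosome 12, and these hold 3.87% and 0.103% of the 100-base stretches. Such copies were rare among the other genes: 35 of the 41 had no 100-base stretch that occurs elsewhere, and only Hdac1 and Ncoa4 had over 5% of their stretches duplicated. For Ncoa4, the receptor of ferritin breakdown that was first named as a coactivator, 76.0% of stretches occur in a copy on chromosome 12. That copy has 99.94% identity over 3313 bases. Ncoa4 was at 15.6 FPKM in the WT and 16.5 FPKM in the KO library, and the part of the copy in these values was not tested. Kat2b has a copy on chromosome 5 with 95.1% identity that holds 2.55% of its stretches. Neither table listed a gene at these copies.

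The class IIa deacetylases have little enzyme activity of their own and act as signal-dependent corepressors of MEF2 transcription factors, shuttling out of the nucleus once phosphorylated. Hdac9 was the lowest of them in both libraries, at 2.9997 FPKM in the WT and 4.95 FPKM in the KO library, or a KO/WT ratio of 1.65 (1.34 to 2.03, from 150 and 255 fragments). Its locus, chr12:34732447-35601767 on the minus strand, had the same bounds in both tables. With 1 FPKM added to both levels the ratio was 1.49, inside the limit of 3/2. Hdac7 was at 22.5 and 25.6 FPKM (ratio 1.14, interval 1.04 to 1.25), with a row for Slc48a1 overlapping its locus. Hdac5, at 22.8 and 22.5 FPKM, and Hdac4, at 7.23 and 7.34 FPKM, were close to level, and the share of Hdac9 in the class was small throughout, 5.40% in WT and 8.20% in KO. The sum of the class was 55.5 FPKM in the WT and 60.3 FPKM in the KO library.

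Hdac11, the only class IV enzyme, showed the lowest ratio of the 41 genes. It was at 6.16 FPKM in the WT and 4.30 FPKM in the KO library, or a KO/WT ratio of 0.698 (0.538 to 0.903), just inside the limit of 2/3. Its interval reached 1.07 when fragments were estimated with the mean annotated transcript length. The class IIb enzymes act mainly in the cytoplasm. Hdac6, the tubulin deacetylase, was at 8.92 and 8.29 FPKM, and Hdac10, which deacetylates polyamines, at 5.74 and 5.79 FPKM, and neither ratio was distinguishable from 1 at this depth.

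Among the sirtuins, Sirt1, the nuclear enzyme that deacetylates p53 and other factors besides histones, was lower in KO. Its level was 4.15 FPKM in the WT and 3.07 FPKM in the KO library, or a KO/WT ratio of 0.740 (0.583 to 0.936). The mitochondrial Sirt4 was at 6.596 and 5.06 FPKM, and the ratio of 0.767 had an interval that reached past 1 (0.566 to 1.04). Sirt2 alone gave 65.0% of the summed sirtuin level in WT and 68.3% in KO, at 66.1 and 70.2 FPKM. Sirt5 of the mitochondria and the nuclear Sirt6 and Sirt7 lay between 5.598 and 11.2 FPKM in both libraries, with ratios from 0.926 to 1.11 whose intervals held 1. The sirtuin sum was 102 FPKM in the WT and 103 FPKM in the KO library.

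On the writing side, Ep300, which encodes the acetyltransferase described with nuclear β-arr1, was nearly level. It was at 12.03 FPKM in the WT and 12.5 FPKM in the KO library, or a KO/WT ratio of 1.04 (0.952 to 1.13). Its paralog Crebbp was at 5.98 and 6.93 FPKM, or a KO/WT ratio of 1.16 (1.02 to 1.32). Kat2b (PCAF), an acetyltransferase of H3 in the SAGA and ATAC complexes, had the fourth highest ratio of the 41 genes, at 7.12 FPKM in the WT and 10.0 FPKM in the KO library. That ratio of 1.41 (1.21 to 1.64) was just inside the limit of 3/2. The paralog that takes the same place in these complexes, Kat2a (GCN5), was at 13.8 and 15.01 FPKM (ratio 1.09), and stayed the more abundant, with 65.9% of the pair in WT and 59.9% in KO. The MYST enzymes Kat5, of the NuA4 complex, at 12.02 and 10.7 FPKM, and Kat8, which acetylates H4, at 8.79 and 8.55 FPKM, both had intervals that held 1.

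The corepressor scaffolds Sin3b and Ncor1 were among the most abundant of the genes, and their intervals were narrow. Sin3b was at 95.3 FPKM in the WT and 107 FPKM in the KO library, or a KO/WT ratio of 1.12 (1.07 to 1.17). Its paralog Sin3a was at 11.7 and 10.5 FPKM, or a KO/WT ratio of 0.893 (0.791 to 1.01), so that Sin3b made up 89.0% and 91.1% of the pair. Ncor1, the nuclear receptor corepressor, was at 26.0 and 29.4 FPKM (1.13, interval 1.07 to 1.1998).

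Of the nuclear receptor coactivators, Ncoa7 was the only gene past the limits. Ncoa7 encodes an estrogen receptor coactivator with a TLDc domain, a fold of proteins that guard against oxidative stress. It was at 3.10 FPKM in the WT and 5.01 FPKM in the KO library, or a KO/WT ratio of 1.62 (1.31 to 2.0001, from 146 and 243 fragments), at chr10:30365388-30522952 on the minus strand. The end of its locus was 30522926 in the KO table, and with 1 FPKM added to both levels the ratio was 1.47. The p160 coactivators, which bring p300 and CBP to ligand-bound receptors, were close to level: Ncoa1 at 4.81 and 4.94 FPKM, Ncoa2 at 8.20 and 9.01 FPKM, and Ncoa3 at 7.43 and 6.89 FPKM. Ncoa5 was at 10.96 and 13.2 FPKM, or a KO/WT ratio of 1.202 (1.03 to 1.399). Ncoa6, a subunit of methyltransferase complexes, was at 11.7 and 12.1 FPKM.

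The bromodomain proteins read acetylated lysines, and none of their 7 genes passed the limits. Brd2, a BET protein that binds acetylated H4 and supports transcription, was the most abundant and was higher in KO, at 51.9 and 62.2 FPKM, or a KO/WT ratio of 1.198 (1.13 to 1.27). Its relative Brd3, at 12.1 and 11.4 FPKM, had an interval that held 1. Brd8, a subunit of the NuA4 acetyltransferase complex, was lower in KO, at 14.9 and 11.8 FPKM, or a KO/WT ratio of 0.792 (0.702 to 0.893). A row for Kif20a, which overlaps the Brd8 locus, ran the other way, at 18.6 and 21.8 FPKM. Brd7, of the PBAF remodeller, was at 18.3 and 20.9 FPKM (1.14, interval 1.02 to 1.27), while Brd9 at 13.5 and 13.3 FPKM and Brd1 at 9.02 and 9.44 FPKM were close to level.

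Summed by role, the levels in KO were 1.14 times those in WT for the class I deacetylases and 1.14 times for the p300, CBP and GCN5 family, so the sums of an erasing and a writing group stood at nearly the same ratio. Hdac1 alone decided the first, since the other 3 class I genes summed to 84.4 FPKM in the WT and 82.5 FPKM in the KO library, at a KO/WT ratio of 0.977. The sums over corepressor scaffolds, coactivators and bromodomain proteins had ratios of 1.06, 1.09 and 1.06. The class IIb and IV deacetylases, at 0.883, and the MYST pair, at 0.926, were the groups with a lower sum in KO.

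Enzymes of acetylation work in complexes, and 140 partner genes were examined in lists by complex: subunits, other readers, the supply of acetyl-CoA and NAD, partners of class IIa deacetylases, and the 2 genes named above for β-arr1 and p300. Of the 131 that were analysed, 8 were above 3/2 and 5 below 2/3 (9.92%, beside 17.8% of all analysed genes), and 118 lay within the limits, with a median log2 ratio of 0.03. The MYST genes kept under older symbols were level, with Kat6a at 10.2 and 10.4 FPKM, Kat6b at 4.79 and 5.03 FPKM and Kat7 at 19.4 and 19.8 FPKM. Of the genes whose promoters were described with β-arr1 and p300, Cdkn1b was at 15.4 and 15.5 FPKM and Fos at 14.6 and 12.4 FPKM, or a KO/WT ratio of 0.852 (0.713 to 1.02).

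Of the scaffold partners of the deacetylases, 1 gene in each list passed the limits. That is 5.88% of the NuRD and CoREST list, 7.14% of the Sin3 list and 20% of the NCoR list, beside 17.8% of all analysed genes. In NuRD and CoREST, 16 of 17 subunits lay within them, and the exception was Rcor2, a CoREST protein close to the floor of the analysis, at 1.08 FPKM in the WT and 0.588 FPKM in the KO library, whose interval held 1 (0.269 to 1.06). In the Sin3 complex 13 of 14 lay within and Brms1 was above, at 20.6 and 61.7 FPKM. The Brms1 locus of the KO table also covered B3gnt1, which was listed at 34.2 FPKM in WT and had no row in KO, and the sum over both genes was 54.9 and 61.7 FPKM. In the NCoR list Gps2 was listed at 14.7 FPKM in WT only, and the other 4 lay within.

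In SAGA and ATAC 5.56% passed the limits and in NuA4, MOZ, HBO1 and MSL 4.17%, beside 17.8% of all analysed genes. Most subunits of the acetyltransferase complexes thus lay within the limits, as did most analysed genes. In SAGA and ATAC, 17 of 18 did so and Tada3, an adaptor that links GCN5 or PCAF to the complex, was above, at 16.3 and 26.0 FPKM, or a KO/WT ratio of 1.60 (1.41 to 1.81). In the NuA4, MOZ, HBO1 and MSL lists 23 of 24 lay within, and Kansl1 was listed in KO only, at 18.5 FPKM, where the WT table had a row for Cdc27 over that locus. Among the other acetyltransferases and the acetyl-CoA and NAD genes 15 of 18 lay within, with 16.7% past the limits. Naa10 and Naa60 were listed in KO only and Nmnat1 in WT only, each with another gene's row over its locus in the table that lacked it, whereas Acly, which makes nuclear acetyl-CoA from citrate, was at 45.1 and 44.9 FPKM.

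Among other readers of acetyl-lysine, 19 of 22 lay within the limits and 13.6% were past them, beside 17.8% of all analysed genes. Brwd1, a bromodomain and WD repeat protein, was at 12.1 FPKM in the WT and 7.52 FPKM in the KO library, or a KO/WT ratio of 0.623 (0.567 to 0.685). Atad2b, a bromodomain ATPase, was at 5.25 and 2.86 FPKM, or a KO/WT ratio of 0.545 (0.435 to 0.680). Smarca4, the ATPase of BAF remodellers, was above, at 38.3 and 76.3 FPKM, but its KO locus also covered 2 genes with their own WT rows, and the sum over the 3 rows was 83.5 and 76.3 FPKM.

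Partners of the class IIa deacetylases had 2 of 11 genes above 3/2 and none below 2/3, a share of 18.2% past the limits that stood near the 17.8% of all analysed genes. Mef2c, a MEF2 factor to which HDAC4, HDAC5, HDAC7 and HDAC9 bind, was at 4.81 FPKM in the WT and 7.44 FPKM in the KO library, or a KO/WT ratio of 1.55 (1.33 to 1.80). Prkd1, a kinase that phosphorylates class IIa enzymes, was at 4.86 and 7.74 FPKM, or a KO/WT ratio of 1.59 (1.31 to 1.94). The more abundant Mef2a, at 26.0 and 27.6 FPKM, and Mef2d, at 27.0 and 30.4 FPKM, lay within the limits, as did Prkd2 and Prkd3. Mef2c and Hdac9 are thus both genes of low level that were higher in the KO library, and any relation between them was not tested.

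**Figure D4:**
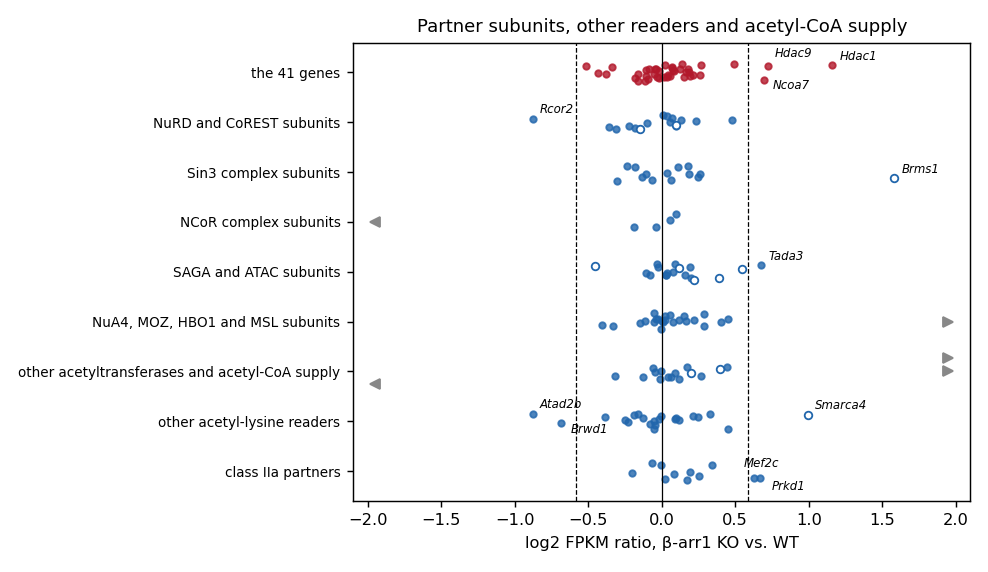
Log2 FPKM ratio of β-arr1 KO vs. WT (x axis) for the 41 genes (red) and for analysed genes of the partner lists (blue), one row per list and one point per gene, with dashed lines at the limits of 3/2 and 2/3. Open circles are partner genes with another gene's row under their locus, grey triangles are genes listed in 1 table only and set at the edge of the plot, and names are given for genes past a limit; most points lie between the dashed lines.

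Of the 13 partner genes past the limits, 6 had another gene's row under their locus in a table and 7 did not, and 5 were listed in 1 table only. None of the 41 genes was listed in 1 table only, and 24 of them had the same locus bounds in both tables (58.5%), beside 60.3% of all genes listed in both.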

How the data were processed

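RNA of cultured DG astrocytes was sequenced from WT and β-arr1 KO mice, with 1 library per genotype, which was grouped by the genotype label. The authors acquired paired reads of 100 bases, aligned them to mm9 with TopHat (version 1.4.0 per the submitters' processing notes) and estimated transcript levels with Cufflinks, whose version is not given in the sources used here. The authors deposited 1 table per library with FPKM values per gene. Starts of loci were raised by 1, so that coordinates count from 1.

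Tables were joined by symbol, with the highest value kept where a symbol was repeated, and genes with at least 1 FPKM in a library were analysed. A gene listed in 1 table only counted as past the limit. Ratios were taken without a pseudocount, and medians over lists with a pseudocount of 0.1 FPKM. With 1 library per genotype, no p-value was computed. Depth was estimated from genes under 0.15 FPKM with 1 transcript of over 1000 bases in GENCODE vM1 (69.2% of 416 values in WT and 69.9% of 435 in KO lay within 5% of a whole-fragment step), and the method was tested on simulated data. Estimated fragments per gene ranged from 68 to 4141 over the 41 genes, and 95% Clopper-Pearson intervals on their shares cover counting error only. Copies of transcripts were searched in NCBIM37 with BLAST+ 2.17.0 at 90% identity or more, and 100-base windows were compared.

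Named were all genes past the limits, all whose interval left out 1, and the highest and lowest of each role; in the partner lists those past the limits, with a few others chosen after their values were seen. Values of 2 of the 41 genes are not reported here, though the counts and sums include them. The members and lists were chosen with earlier results of these data known. Python 3.11.15, pandas 2.3.3, scipy 1.17.1 and matplotlib 3.10.9 were used. Alternatives were other minimum levels, pseudocounts, scalings, limits and transcript lengths, and summing repeated symbols.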

Additional observations from a re-analysis of the deposited data

How the results depend on the processing

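With 1 library per genotype, these values have no replicate check. No paired analysis was possible because each genotype has 1 library and no test was made. Of the 41 genes, 3 passed the limits under all alternatives except a minimum of 5 FPKM, which left 2 (Hdac1 and Ncoa7, since Hdac9 was below it in both libraries), and a pseudocount of 1 FPKM and limits of 2 and 1/2, which each left 1, Hdac1. With that pseudocount the ratios of Hdac9 and Ncoa7 were 1.49 and 1.47. The ratio of Hdac1 ran from 2.14 to 2.24, and the 205 ratios of single genes under another pseudocount or scaling stayed within the counting interval of the reported ratio (the other alternatives leave such a ratio as it is). The scalings multiplied KO values by 0.982 to 1.003 only, so they could hardly move a ratio out of its interval. Intervals left out 1 for 13 of the 41 genes, in place of 16, when fragments were estimated with the mean transcript length (Hdac11, Brd7 and Ncoa5 no longer did so), and for 16 or 17 under rescalings chosen after seeing the data. Over all genes, the count past the limits was 1179 of 9397 (12.5%) at a minimum of 5 FPKM. It was 1372 of 11622 (11.8%) when both libraries had to reach 1 FPKM. With limits of 2 and 1/2 it was 1163 of 12646 (9.20%), beside 2256 (17.8%) in the main setting. For the partner lists the count was 7 of 125 (5.6%) when both libraries had to reach 1 FPKM, beside 13 of 131 (9.92%). Genes with few fragments, such as Sirt5, have wide intervals.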

Other observations

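The gene ontology columns of the deposited tables place 36 of the 41 genes (87.8%) in the nucleus, beside 29.0% of all genes listed in WT. Of the 41 genes, 18 carry the term chromatin binding and 12 the term histone deacetylation.

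Promoters of 33 of the 41 genes (49 promoters, from 250 bases before to 50 bases after the start) were found in the RefSeq table of GRCm38.p6. Those of Brd8, Hdac1, Hdac10, Hdac3, Ncoa2 and Ncoa3 were not among them. The MEF2 consensus, searched on both strands, was present in 1 of the 49 promoters (2.04%), that of Hdac5, beside 3.19% of all 32851 promoters in the table. The cAMP response element TGACGTCA was in none of the 49, beside 1.79% of all. No match says only that these letters are not in these windows.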
